A study of Homo sapiens with 6 samples.

Results

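U6 is the small nuclear RNA at the catalytic centre of the spliceosome, and U6atac takes its place in the minor spliceosome, which removes a rare class of introns. All rows of the deposited count table with the class label U6 or U6atac were taken, which gave 102 windows of 53603 in all, 97 of them U6 and 5 U6atac. Each row is a window of 400 bp, from 150 bp before to 250 bp after a gene's start site, so a window holds a whole U6 gene and the RNA made from it as well as its near promoter. The libraries hold small RNA of HEK293T cells, an established line of human embryonic kidney origin. The cells had received 150 nM siRNA for 48 h, either a control or one directed at La, the RNA-binding protein that SSB encodes, and each arm has 3 libraries. All 6 libraries came from the same transfected line and differed by their siRNA, and the labels name no further allele, clone or drug. Per the labels' protocols, the RNA was dephosphorylated and then given a phosphate with T4 polynucleotide kinase before library making, so that molecules with other ends could also be read.

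U6 and U6atac genes are transcribed by RNA polymerase III from promoters that lie upstream of the gene, with a TATA box and elements bound by the SNAPc complex. Transcription stops in a run of T, and the new RNA therefore ends in a run of U, which La binds. In maturation MEPCE caps the first nucleotide, TUT1 adds U and USB1 trims them, and the Lsm ring then takes the place of La at the end. U6 is carried into the spliceosome base-paired to U4, and is later paired with U2 and the intron's start. The human genome holds a few U6 genes with such promoters and a very large number of U6-like copies, most of which are regarded as pseudogenes.

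A GENCODE release 29 start site within 50 bp named 99 of the 102 windows, and for 82 the start site matched to the base. All 5 U6atac windows and 94 of the 97 U6 windows were named. Of the 99 named genes 63 lay on the plus strand, and members lay on 21 chromosomes. The annotation lists 1277 U6 genes, so the windows cover a small part of them. In all coordinates the build is GRCh38, which the submitters' processing notes name.

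The sequence of RNU6ATAC, the reference copy of U6atac, is shown because the run of T at its end, in capitals, is the kind of end that gives La its site in the RNA. It is the annotated gene sequence of GENCODE release 29, written as DNA from the first to the last base.
RNU6ATAC: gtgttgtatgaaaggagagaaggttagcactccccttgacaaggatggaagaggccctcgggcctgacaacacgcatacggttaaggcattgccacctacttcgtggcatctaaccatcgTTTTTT

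The U6 genes were compared with RNU6-1 over their annotated letters, because the counts divided along them. RNU6-1 is 107 bases long, and RNU6-2, RNU6-9, RNU6-3P and RNU6-6P have the same 107 bases. Counted from the first base of RNU6-1, RNU6-36P differs by T10C, RNU6-7 and RNU6-8 each differ by T107G, and RNU6-37P differs by T106A and T107A. Thus 6 of these 9 genes end in 5 T, and the annotated ends of the other 3 break the run of T. A run of 4 T still stands before the last base of RNU6-7 and RNU6-8, and of 3 T before the last bases of RNU6-37P, and the bases after the annotated ends were not analysed here. Over bases 1 to 102 the annotation holds 11 U6 genes identical to RNU6-1, of which 8 have a window here. RNU6-4P, RNU6-5P and RNU6-11P, the other 3, have no window, so reads placed there are not in these counts. RNU6ATAC is 126 bases long and ends in 6 T.

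RNU6-1 (chr15:67839939-67840045, minus strand) lies in an intron of AC009292.2, on the opposite strand. RNU6-2 (chr19:1021522-1021628, plus strand) and RNU6-9 (chr19:893484-893590, plus strand) lie between annotated genes, as do RNU6-3P (chrX:141118030-141118136, minus strand) and RNU6-6P (chr10:13217269-13217375, plus strand). RNU6-7 (chr14:32202045-32202151, plus strand) and RNU6-8 (chr14:32203163-32203269, minus strand) also lie between genes, and they point toward each other with 1011 bp between their ends. RNU6-36P (chr12:97721716-97721822, plus strand) lies in an intron of AC007424.1 on the opposite strand. RNU6-37P (chr1:10298966-10299072, plus strand) lies in an intron of KIF1B on the same strand. RNU6ATAC (chr9:134164439-134164564, minus strand) lies between genes. Strand was not used in the comparison, and the use of strand in the authors' counting is not given in the sources used here.

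Of the 102 windows, 49 had at least 1 read in the 6 libraries and 53 had none. The members summed to 1630, 1142 and 1017 counts in control replicates 1 to 3 and to 883, 1067 and 1036 in La knockdown replicates 1 to 3. Those sums came from libraries of 3066299 to 4105806 counts. The 9 genes above held 97.2% of all member counts, and they were the 9 windows with a mean of at least 20 counts. The other 93 windows together had 18 to 50 counts in a library, and their largest single value was 12. In a window with no read, 3 counts are the limit that a count of 0 allows, which is 0.731 to 0.978 CPM (counts scaled to library size) in a library. That limit covers counting error only, because reads without molecular identifiers are not independent molecules.

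Well-read and sparsely read windows were set apart by their distance from RNU6-1, measured as the number of substitutions, insertions and deletions. The 5 identical genes had means of 136.5 to 164 counts per window. The 4 genes at a distance of 1 or 2 had means of 77.7 to 105. No named U6 window lay at a distance of 3 to 8. At a distance of 9 all 5 windows had reads, with means of 0.167 to 4.17. Beyond that, windows with a read were 10 of 20 at a distance of 10 to 14, 10 of 19 at 15 to 19 and 10 of 41 at 20 to 40. This is a description over windows that share libraries and, where the letters are alike, share reads. The handling of reads with several matching positions is not given in the sources used here, so a value for any single one of the 9 windows is uncertain.

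**Figure D1:**
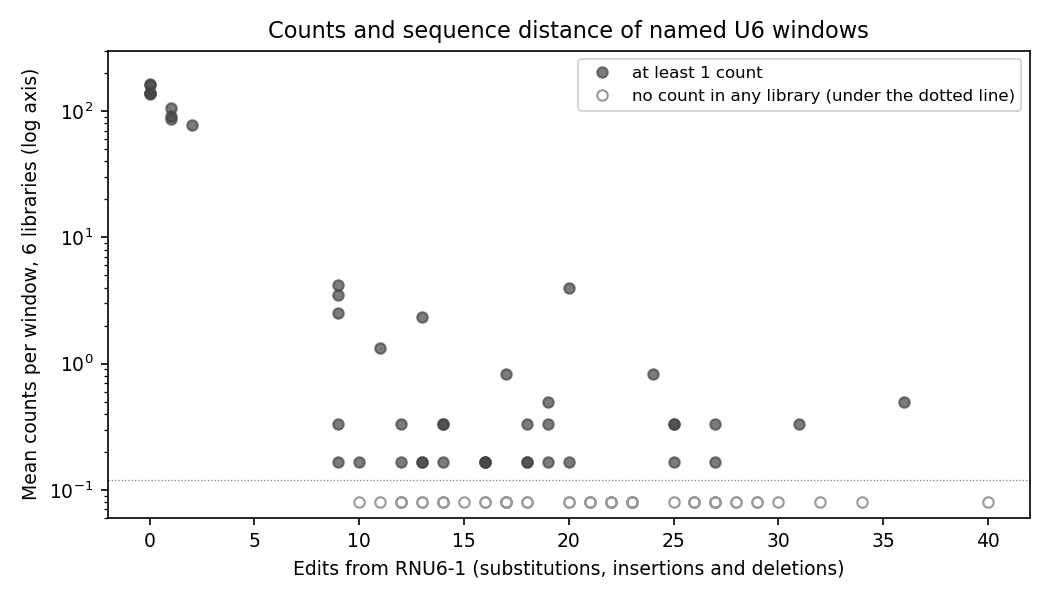
Mean counts per window over the 6 libraries (log axis) against the number of edits from RNU6-1, for the 94 named U6 windows. The 9 windows within 2 edits sit between 77.7 and 164 counts, and all others sit at 4.17 or lower, with those that had no read drawn under the dotted line.

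RNU6-9, which had the highest mean, counted 227, 165 and 158 reads in control replicates 1 to 3, against 125, 141 and 169 after La knockdown. RNU6-3P counted 244, 162 and 145 reads in control replicates 1 to 3, against 126, 143 and 137 after La knockdown. RNU6-6P counted 223, 139 and 116 reads in control replicates 1 to 3, against 93, 113 and 146 after La knockdown. Control replicate 1 was the highest library in each. The raw counts of the arms overlapped for RNU6-9 and RNU6-6P but not for RNU6-3P, and after scaling for depth they overlapped for all 3.

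RNU6-2 counted 219, 142 and 123 reads in control replicates 1 to 3, against 104, 115 and 125 after La knockdown. RNU6-1, the reference copy here, counted 219, 151 and 124 reads in control replicates 1 to 3, against 105, 103 and 117 after La knockdown. In raw counts the 3 La knockdown values of RNU6-1 lay under the 3 control values, but after scaling for depth the arms overlapped. RNU6-36P, with the change near its start, counted 152, 99 and 99 reads in control replicates 1 to 3, against 76, 93 and 110 after La knockdown.

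RNU6-7 counted 121, 79 and 88 reads in control replicates 1 to 3, against 70, 112 and 77 after La knockdown. RNU6-8 counted 101, 96 and 77 reads in control replicates 1 to 3, against 89, 90 and 69 after La knockdown. RNU6-37P counted 90, 70 and 69 reads in control replicates 1 to 3, against 63, 107 and 67 after La knockdown. In these 3, whose annotated ends break the run of T, the arms overlapped. After scaling for depth, La knockdown replicate 2 was the highest library for RNU6-7 and RNU6-37P, and La knockdown replicate 1 for RNU6-8.

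**Figure D2:**
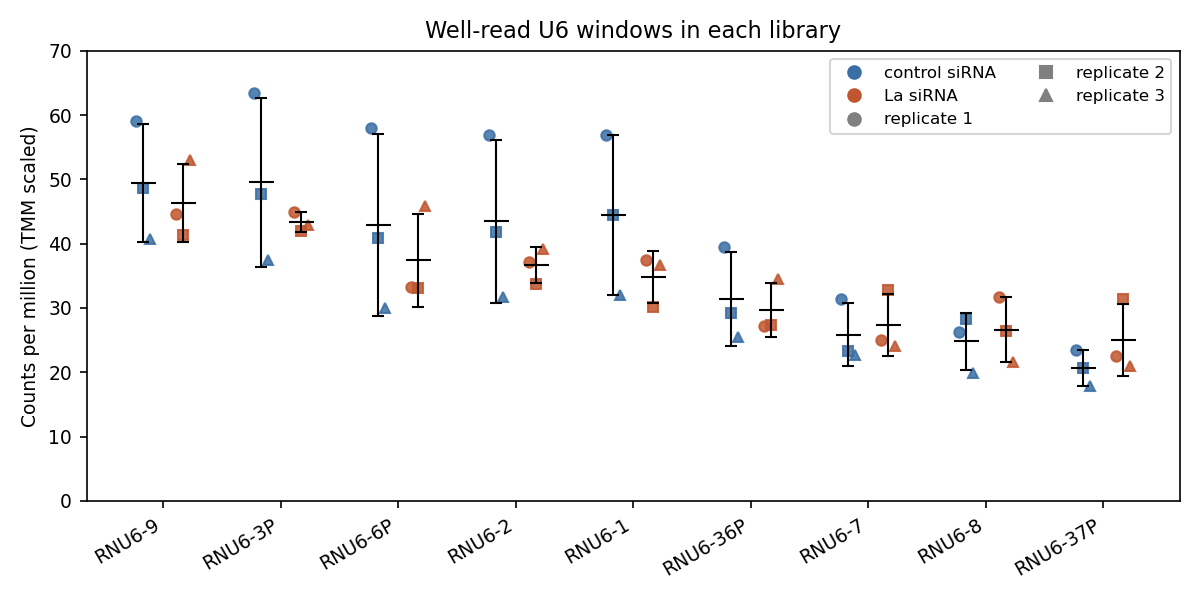
CPM scaled by TMM factors for the 9 well-read U6 windows, with 3 control (blue) and 3 La knockdown (orange) libraries per window, and bars for the mean and SD. Control replicate 1 is the highest point in RNU6-9, RNU6-3P, RNU6-6P, RNU6-2, RNU6-1 and RNU6-36P, and the arms overlap in every window.

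On the CPM scale (counts scaled by each library's total and its TMM factor, which corrects for composition), mean levels over the 6 libraries ran from 47.9 ± 7.13 for RNU6-9 to 22.8 ± 4.63 for RNU6-37P (SD, n = 6 libraries of both arms). No neighbours in the order of the 9 levels differed by more than the larger of their SDs. The widest step was from RNU6-1 to RNU6-36P, which was 1.30-fold, and RNU6-1 was the higher of the pair in 6 of 6 libraries. Over the 5 identical genes and the 3 whose annotated ends break the run of T, an identical gene had more counts in 88 of 90 pairings within a library. The 2 exceptions were in La knockdown replicate 2, where RNU6-7 and RNU6-37P had more counts than RNU6-1. The pairings use the same windows again and again, and these windows can share reads, so the 90 are not separate observations. The grouping was chosen after the values were seen, and RNU6-36P is not part of it. Each gene's share of the counts of the 9 windows varied between libraries, for example from 13.9% to 16.6% for RNU6-9 and from 5.64% to 10.5% for RNU6-37P.

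The comparison of the arms asks whether U6 small RNA changes when La is depleted. No U6 window was called between the arms. Of the 9 that had enough reads to be tested, 0 passed an adjusted p of 0.05 (edgeR quasi-likelihood test, Benjamini-Hochberg over all windows, n = 3 per arm). Of all 1064 windows tested, 5.45% were called, 4.79% as lower and 0.658% as higher in La knockdown. At an unadjusted p under 0.05 the members again had 0, against 23.9% of all windows, and DESeq2 also gave 0 at either threshold. The fitted change lay below 0 in 6 of the 9, against 53.2% of all windows. Of those 6 windows, 5 hold genes with the same 107 bases and can share reads. The 6 are therefore not separate observations, and the 2 shares are not directly comparable. The median log2 fold change of the 9 was -0.09, beside -0.05 over all tested windows.

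The window of RNU6-1 had the lowest fitted value. RNU6-1, RNU6-2, RNU6-9, RNU6-3P and RNU6-6P have the same 107 bases and can share reads. Differences among these 5 therefore cannot be assigned to single genes. The level of RNU6-1 was 44.5 ± 12.5 CPM in control libraries and 34.8 ± 3.99 CPM after La knockdown (SD, n = 3). Its log2 fold change was -0.35 (SE 0.29, 95% interval -0.99 to 0.28, edgeR adjusted p = 0.409). RNU6-2 had -0.25 (95% interval -0.88 to 0.39), RNU6-6P -0.20 (-0.88 to 0.48) and RNU6-3P -0.19 (-0.79 to 0.41). RNU6-9 had 49.5 ± 9.14 CPM in control libraries, beside 46.3 ± 6.01 after La knockdown (SD, n = 3). Its log2 fold change was -0.09 (-0.67 to 0.48), and RNU6-36P had -0.08 (-0.71 to 0.55). The genes whose annotated ends break the run of T had values above 0, which were 0.08 for RNU6-7 (-0.55 to 0.72), 0.10 for RNU6-8 (-0.54 to 0.74) and 0.28 for RNU6-37P (-0.37 to 0.93). RNU6-37P had 20.6 ± 2.79 CPM in control libraries, beside 25.0 ± 5.61 after La knockdown (SD, n = 3, edgeR adjusted p = 0.528). Over the 9 windows the edgeR adjusted p ran from 0.409 to 0.856. Each interval includes 0, and each also includes changes of at least 0.28 in either direction on the log2 scale, so none of them excludes a change of that size.

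**Figure D3:**
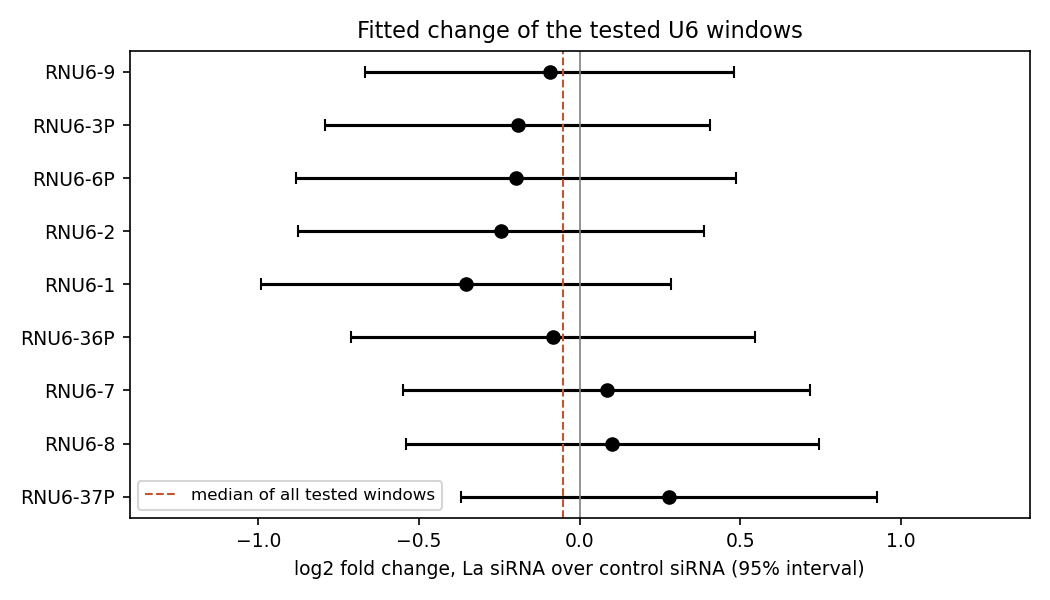
Fitted log2 fold change of La knockdown over control for the 9 tested U6 windows, with 95% intervals, 0 as a solid line and the median of all tested windows (-0.05) as a dashed line. Every interval crosses 0, and the point values run from -0.35 for RNU6-1 to 0.28 for RNU6-37P.

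The direction and size depended on the libraries and the scaling. The log2 fold change of RNU6-1 was -0.14 without control replicate 1 and -0.54 without control replicate 3, and that of RNU6-2 was -0.0036 and -0.42. RNU6-37P had 0.062 without La knockdown replicate 2. Without control replicate 1 the median of the 9 was 0.08, and with upper quartile factors it was 0.23, while those factors moved the median of all windows to 0.26. Control replicate 1, the library with the largest total, was also high for U1 and U2 in unscaled counts, with 119410 in U1 windows and 219886 in U2 windows, where the other 5 libraries had 52943 to 68161 and 88838 to 112639. For U4 windows it was not the highest library, with 967 counts against 1087 in La knockdown replicate 2. The part of that library in the U6 values beyond these fits was not tested. The authors' deposited table gives the 9 windows log2 fold changes of -0.61 to -0.01, all with an adjusted p of 1. All 9 lay below 0 there, including RNU6-7 (-0.20), RNU6-8 (-0.17) and RNU6-37P (-0.01). Those 3 lay above 0 in the main fit here, so their sign depended on the fit.

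Because library scale cancels within the set, the counts of RNU6-7, RNU6-8 and RNU6-37P were also set against those of all 9 windows. This grouping by the end of the gene was chosen after the values were seen and was not tested. The 3 genes held 19.5% (95% Wilson interval 17.7 to 21.6), 22.2% (19.9 to 24.8) and 23.4% (20.9 to 26.1) of the counts of the 9 windows in control replicates 1 to 3. In La knockdown replicates 1 to 3 they held 26.1% (23.2 to 29.1), 30.4% (27.6 to 33.3) and 20.9% (18.6 to 23.6). La knockdown replicates 1 and 2 lay above the control range and replicate 3 inside it, so the arms overlapped. The means were 21.7% ± 1.98 and 25.8% ± 4.73 (SD, n = 3).

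**Figure D4:**
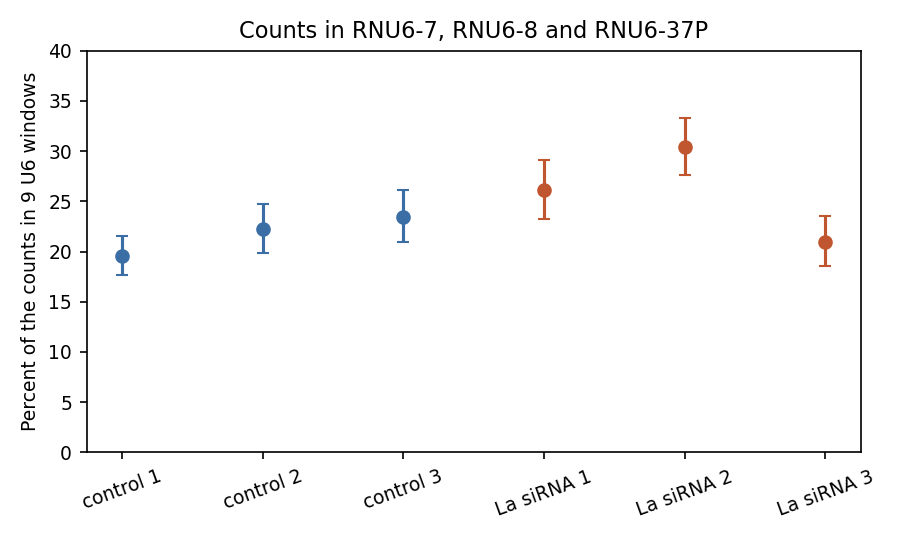
Percent of the counts of the 9 well-read U6 windows that lay in RNU6-7, RNU6-8 and RNU6-37P, for each library with its 95% Wilson interval, which covers counting error only. Control libraries (blue) lie from 19.5 to 23.4 and La knockdown libraries (orange) from 20.9 to 30.4.

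As a share of all counts, the 102 windows held 0.0346% ± 0.00527 in control libraries, beside 0.0310% ± 0.00202 after La knockdown (SD, n = 3). The ranges overlapped (two-sided exact permutation p = 0.3, adjusted 0.45 over 3 sums and ratios, smallest possible 0.1). Single libraries ran from 0.0288% (95% Wilson interval 0.0270 to 0.0308) in La knockdown replicate 1 to 0.0397% (0.0378 to 0.0417) in control replicate 1. The difference of -0.00367 percentage points was -0.00114 without control replicate 1 and -0.00639 without control replicate 3. With ribosomal RNA windows left out of the total the direction turned, from 0.0769% in control libraries to 0.0902% after La knockdown (exact permutation p = 0.3).

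The other spliceosomal RNAs, U1, U2, U4 and U5, are made by RNA polymerase II, and U4 is the RNA that pairs with U6. Their 186 windows held 8.69% ± 2.16 of the counts in control libraries, beside 6.52% ± 1.05 after La knockdown (SD, n = 3). The arms overlapped in this share, which was not tested. Unscaled, the 186 windows summed to 457960 counts in control replicate 1 and to 184200 to 253848 in the other libraries. The log2 ratio of U6 counts to that sum was -7.96 ± 0.17 in control and -7.71 ± 0.24 in La knockdown libraries (SD, n = 3, exact permutation two-sided p = 0.3, adjusted 0.45). Against U4 alone the log2 ratio was 0.48 ± 0.31 and 0.29 ± 0.30 (SD, n = 3, exact permutation two-sided p = 0.5, adjusted 0.5). Without La knockdown replicate 2 the difference in the first ratio went from 0.24 to 0.11 and that in the second from -0.19 to -0.03, and without control replicate 1 they were 0.16 and -0.06. Without control replicate 3 the second was -0.36, and without La knockdown replicate 3 it was -0.32. The second ratio sets the sum of 97 U6 windows (6749 counts) against that of 26 U4 windows (5136 counts). Such sums do not measure the amounts of U6 and U4 in the cells. The U4 genes RNU4-2 and RNU4-1 had means of 427.5 and 412 counts per window, above the 77.7 to 164 of the well-read U6 windows. Their log2 fold changes were 0.10 and 0.16 (edgeR adjusted p = 0.772 and 0.673).

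Over U1, U2, U4, U4atac, U5, U11 and U12 windows, 86 of 192 were tested and 0 were called in either direction. Their median log2 fold change was -0.01, and 44 of the 86 lay below 0. The classes differed, with 8 of 8 U5 windows below 0 (median -0.37), 18 of 34 U2 windows (-0.09) and 16 of 38 U1 windows (0.13). The windows with the most counts lay below 0, such as RNU5E-1 and RNU12, each at -0.46. Many U2 windows on chromosome 17 had near-identical counts and can share reads, so they are not separate observations. At an unadjusted p under 0.05 there were 7 of the 86, against 23.9% of all tested windows. Of these the window U1_52591 was lower (log2 fold change -1.77), and the rest were higher. It had 3113 counts in control replicate 1 and 224 to 371 in the other libraries. Of other RNA polymerase III genes with an upstream promoter, all 9 windows of RN7SK, RMRP, RPPH1, RNY1, RNY3, RNY4 and RNY5 were tested and 0 were called, with a median of 0.15. These RNAs are parts of the 7SK complex, RNase MRP, RNase P and the Ro particle. RMRP and RN7SK each have 2 overlapping windows, which can share reads.

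U6atac works in the minor spliceosome, with U11, U12 and U4atac. RNU6ATAC counted 4, 5 and 2 reads in control replicates 1 to 3, against 5, 5 and 4 after La knockdown, too few to be tested in the fit. On the CPM scale this was 1.01 ± 0.479 and 1.50 ± 0.267 (SD, n = 3, exact permutation two-sided p = 0.3), and the arms overlapped. The remaining 4 U6atac windows had 1 count between them, in the RNU6ATAC37P window of control replicate 1. RNU4ATAC, the partner of U6atac, counted 83, 75 and 63 reads in control replicates 1 to 3, against 55, 150 and 79 after La knockdown (log2 fold change 0.57, edgeR adjusted p = 0.304). RNU12 and RNU11 had means of 20714 and 4561.5 counts per window, with log2 fold changes of -0.46 and -0.86 (edgeR adjusted p = 0.304 and 0.222).

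Among the sparsely read U6 copies, RNU6-929P and RNU6V each differ from RNU6-1 by 9 bases. RNU6-929P counted 5, 4 and 2 reads in control replicates 1 to 3, against 4, 9 and 1 after La knockdown. RNU6V, whose window also holds part of GNAI3, counted 5, 8 and 0 reads in control replicates 1 to 3, against 5, 2 and 1 after La knockdown. Both sets overlapped between the arms, at a level near the limit of detection. RNU6-717P counted 3, 1 and 2 reads in control replicates 1 to 3, against 3, 12 and 3 after La knockdown, but its window overlaps a Y RNA window with identical counts, and the source of those reads cannot be told apart. Of the 40 windows with few reads, RNU6-929P, RNU6-717P and RNU6ATAC were read in all 6 libraries, and 17 had a single read in all. Another annotated transcript lay in 26 of the 40, so reads there need not come from the U6 copy.

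Named windows without any read lay at 10 to 40 edits from RNU6-1, with a median of 22, and sparsely read ones at 9 to 36, with a median of 16. A final run of at least 4 T was present in 13 of the 50 U6 genes without a read, in 12 of the 35 sparsely read ones and in 6 of the 9 well-read ones. Outside the class, 3 windows with other labels held an annotated U6 gene, and the Y RNA window beside RNU6-717P was the 1 of them with reads.

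Genes that act on U6 were read little at their own promoters. Of 19 genes of U6 metabolism, which included SSB, LARP7, MEPCE, USB1, TUT1 and the Lsm ring, 17 had 29 windows, and these had 17 to 27 counts in a library. Of 10 genes of transcription at U6 promoters, such as those of SNAPc, TBP, BRF2 and ZNF143, 9 had 18 windows with 2 to 8 counts in a library. None of these windows had enough reads to be tested. The more read of the 2 SSB windows counted 4, 3 and 3 reads in control replicates 1 to 3, against 1, 0 and 0 after La knockdown. The other counted 0, 0 and 1 reads, against 0, 2 and 0. SSB was singled out after its values were seen, and these counts were not tested. Such a window counts small RNA at the promoter and does not measure SSB mRNA or La, so the depth of the knockdown beside the U6 values is not known from these counts.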

How the data were processed

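One deposited table gives unnormalized counts for 53603 windows of 400 bp in 6 libraries, per the file headers. Per the submitters' processing notes the tools were Trim Galore, Bowtie2, bedtools and edgeR and the build was GRCh38. Their versions, the use of strand and the treatment of reads with several positions are not given in the sources used here. The second table, deposited by the authors, holds a log2 fold change, an F statistic (a score) and a p-value with its adjusted value per window, per the file headers. Window starts were shifted by 1 to count from 1.

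Members are all rows with the class label U6 or U6atac. They and the gene lists were chosen with earlier results of these data known. Members with a mean of at least 20 counts, and RNU6ATAC, are given per library. SSB, RNU6-929P, RNU6V, RNU6-717P and the sparse windows in the closing section were chosen after their values were seen.

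The arms were compared over the whole table with edgeR 4.0.16 in R 4.3.3 (filterByExpr, TMM factors, quasi-likelihood test, Benjamini-Hochberg adjustment). Standard errors and intervals came from the F statistic. For shares and ratios, exact permutation tests (two-sided) were run in SciPy 1.17.1. Edit distances between GENCODE release 29 gene sequences were computed with edlib. The letters of the U6 genes are not reported here. In simulated counts where 200 windows had a log2 change of 2, the fit recovered 98.7% of the changed windows over 5 sets of 1029 to 1043 windows. Over those sets the fit also called 36 unchanged windows. All simulated windows shared a common dispersion, and the fitted U6 changes of -0.35 to 0.28 were far smaller than the simulated ones. The recovery therefore does not show what the fit can find at the size of the U6 changes. The series describes the replicates as biological. Alternatives were other scalings, filters and dispersions, DESeq2 1.42.0, a replicate block and leaving out each library.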

Additional observations from a re-analysis of the deposited data

How the results depend on the processing

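For the 9 tested U6 windows, 16 alternatives each gave 144 fits. None passed an adjusted p of 0.05, with edgeR or DESeq2 adjusted p from 0.160 to 1.00. Direction was kept in 130 and turned in 14. Upper quartile factors turned RNU6-9, RNU6-3P, RNU6-6P, RNU6-2 and RNU6-36P to 0.23, 0.13, 0.13, 0.081 and 0.24, and no filter on low counts turned RNU6-7 and RNU6-8 to -0.18 and -0.17. Over the fits without one library the ranges were -0.28 to 0.052 for RNU6-9, -0.36 to 0.025 for RNU6-3P, -0.45 to 0.078 for RNU6-6P, -0.42 to -0.0036 for RNU6-2, -0.54 to -0.14 for RNU6-1, -0.28 to 0.12 for RNU6-36P, -0.088 to 0.26 for RNU6-7, -0.073 to 0.19 for RNU6-8 and 0.062 to 0.39 for RNU6-37P. The cause was not tested. Leaving ribosomal RNA windows out of the total turned the difference in the U6 share to 0.0133 percentage points. The number of U6 windows called was 0 under every alternative. The log2 ratios to the RNA polymerase II spliceosomal RNAs and to U4 kept their direction, but single libraries moved their size. The difference in the ratio to RNA polymerase II spliceosomal RNAs ran from 0.11 (without La knockdown replicate 2) to 0.32, and that in the ratio to U4 from -0.36 (without control replicate 3) to -0.03 (without La knockdown replicate 2). The replicate block gave a median log2 fold change of -0.09 over the 9 windows and changed no U6 call. It gave 88 lower and 20 higher windows among all, beside 51 and 7 without it. Without La knockdown replicate 1 no window of the whole table was called by edgeR, while unadjusted p-values under 0.05 numbered 103 on the lower and 72 on the higher side. Nothing in the labels says whether the replicate numbers pair the libraries. Those of the same number had correlations of deviations of 0.14, 0.23 and -0.46, and those of different numbers ran from -0.51 to 0.50. With so few libraries these values cannot decide whether the libraries pair. Counts of 63 to 244 per library in the well-read windows limit the precision. With no filter on low counts the 40 sparsely read members were fitted too, and none had an edgeR adjusted p under 0.581.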

Other observations

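Among the sparsely read members, 2 had ranges of counts that did not overlap between the arms. The share of all windows with such ranges was not computed, so this count is not a result about U6. The window U6_51582, which holds part of ACBD6 and is without an annotated U6 gene at its start site, counted 1, 3 and 1 reads in control replicates 1 to 3, against 0, 0 and 0 after La knockdown. RNU6-531P, whose window also holds part of ELF2, counted 0, 0 and 0 reads in control replicates 1 to 3, against 3, 1 and 1 after La knockdown. They were picked for this, so no test of these counts is given. In the authors' deposited table they were the 2 of 102 members with an unadjusted p under 0.05, at 0.0233 for U6_51582 and 0.0384 for RNU6-531P, and the adjusted p of each was 1. The share of all windows under that threshold in the authors' values was not computed here. No fold is given, since these values lie at the limit that a count of 0 allows. Neither passed the filter on low counts.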
